A study of Mus musculus with 9 samples.

Results

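The genes described here are 10 members of the amino acid transporter families SLC7 and SLC3, namely *Slc7a1*, *Slc7a2*, *Slc7a3*, *Slc7a5*, *Slc7a6*, *Slc7a7*, *Slc7a8*, *Slc7a9*, *Slc7a10* and *Slc3a2*. They were chosen by gene name from a table of 29069 genes, with their fold changes between the media in these same libraries already in view, so their levels and differences are given as a description, without p-values. Total RNA was sequenced from murine embryonic stem cells of the D3 line (mESC), grown without feeder cells and kept for 24 h in 1 of 3 media, with 3 libraries per medium. In ground-state medium (GS), mESC were in serum-free NDiff N2B27 with the MEK inhibitor PD0325901 (1 μM), the GSK-3 inhibitor CHIR99021 (3 μM) and leukemia inhibitory factor (LIF, 20 ng/mL). In differentiation medium (DM), they were in DMEM that held 10% fetal bovine serum, glutamine (4 mmol/L), glucose (1 g/L) and 2-mercaptoethanol, with neither the inhibitors nor LIF. In NO medium, the nitric oxide donor diethylenetriamine/nitric oxide adduct (DETA/NO, 250 μM) was present in DM. Hence NO and DM differed by the donor alone, whereas between GS and DM the basal medium, the serum, both inhibitors and LIF changed together, and their parts cannot be told apart. All libraries came from 1 cell line.

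SLC7 proteins carry amino acids across the plasma membrane and fall into 2 branches. The cationic amino acid transporters work alone and bring in arginine, lysine and ornithine, whereas the light chains are held at the membrane by a heavy chain, *Slc3a2* (also known as CD98 or 4F2hc) or *Slc3a1*, and exchange amino acids across it. Arginine is the substrate of the nitric oxide synthases as well as of the arginases, and leucine and arginine are sensed by the mTORC1 pathway, so these carriers stand upstream of both NO production and growth control. Mouse ES cells are known to depend on several amino acids in their medium.

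Values are normalised read counts, i.e. read counts per gene that the authors divided by a size factor of the library and rounded. Column totals lay between 18290445 and 20508679, and the number of assigned reads behind them was estimated at 14309164 to 27064952 per library. Differences between media are log2 fold changes on the log2(value + 1) scale from limma, with all 9 libraries in 1 fit of 18156 genes with a mean above 5. A gene was called when its Benjamini-Hochberg adjusted p-value was under 0.05 and its absolute log2 fold change at least 1. All 11 pluripotency markers examined were detected, with a summed level of 119596 to 123063 in GS and 99277 to 108496 in DM. *Tfcp2l1* (30213 to 31982 in GS, 9340 to 12742 in DM), *Nanog* (12184 to 15465, 7596 to 8190) and *Klf4* (2702 to 3735, 1805 to 2437) were lower in DM without overlap. *Zfp42* (16236 to 18573, 19569 to 22594) and *Utf1* (609 to 1164, 3184 to 5464) were higher without overlap, and the others overlapped. In NO, the sum of all 11 was 104444 and 96960 in replicates 1 and 3 but 63073 in replicate 2, which stood apart from the other libraries. The same library held the highest sums of 7 primitive endoderm markers (709, against 113 to 351 in the other 8) and of 7 trophoblast markers (2585, against 941 to 1720). Its trophoblast sum was mostly *Krt8* (962), *Krt18* (604), *Krt7* (484) and *Tfap2c* (426). *Cdx2* (14) and *Eomes* (91) lay below every GS library there (46 to 75 and 229 to 308), and *Elf5* was at 4. In bulk RNA, fewer cells of a type and less RNA per cell cannot be told apart. The fold changes of the 10 genes in NO are therefore given with and without NO replicate 2, and levels summed over genes library by library. Per-kilobase means, shares and correlations without that library were added after the data had been seen.

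All 10 members had a mean above 5, and *Slc7a10* passed this filter only through its level in NO. *Slc7a7* was higher in DM and in NO than in GS, *Slc7a8* and *Slc7a10* were higher in NO than in GS, and in NO against DM *Slc7a2* and *Slc7a10* were higher and *Slc7a3* lower. In DM against GS, 1 of 10 members was called, higher, where 4.2% of all genes tested were called, 2.94% higher and 1.27% lower. In NO against GS 3 members were called, all higher, beside 11.7% of all genes (10.1% higher, 1.64% lower). In NO against DM 2 members were called higher and 1 lower, beside 8.55% of all genes (6.78% higher, 1.77% lower). With quantile normalisation the genes called were split into 1304 higher and 629 lower in NO against GS, where the deposited scaling gave 1830 and 297, and into 959 and 514 in NO against DM, where it gave 1231 and 321. Of the 10 members, 2 were then called in NO against GS and 2 in NO against DM, beside 10.6% and 8.11% of all genes. With the deposited scaling, *Slc7a1*, *Slc7a5*, *Slc7a6*, *Slc7a9* and *Slc3a2* were called in none of the 3 comparisons. The comparisons share libraries, so the calls in them are not independent of each other.

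**Figure D1:**
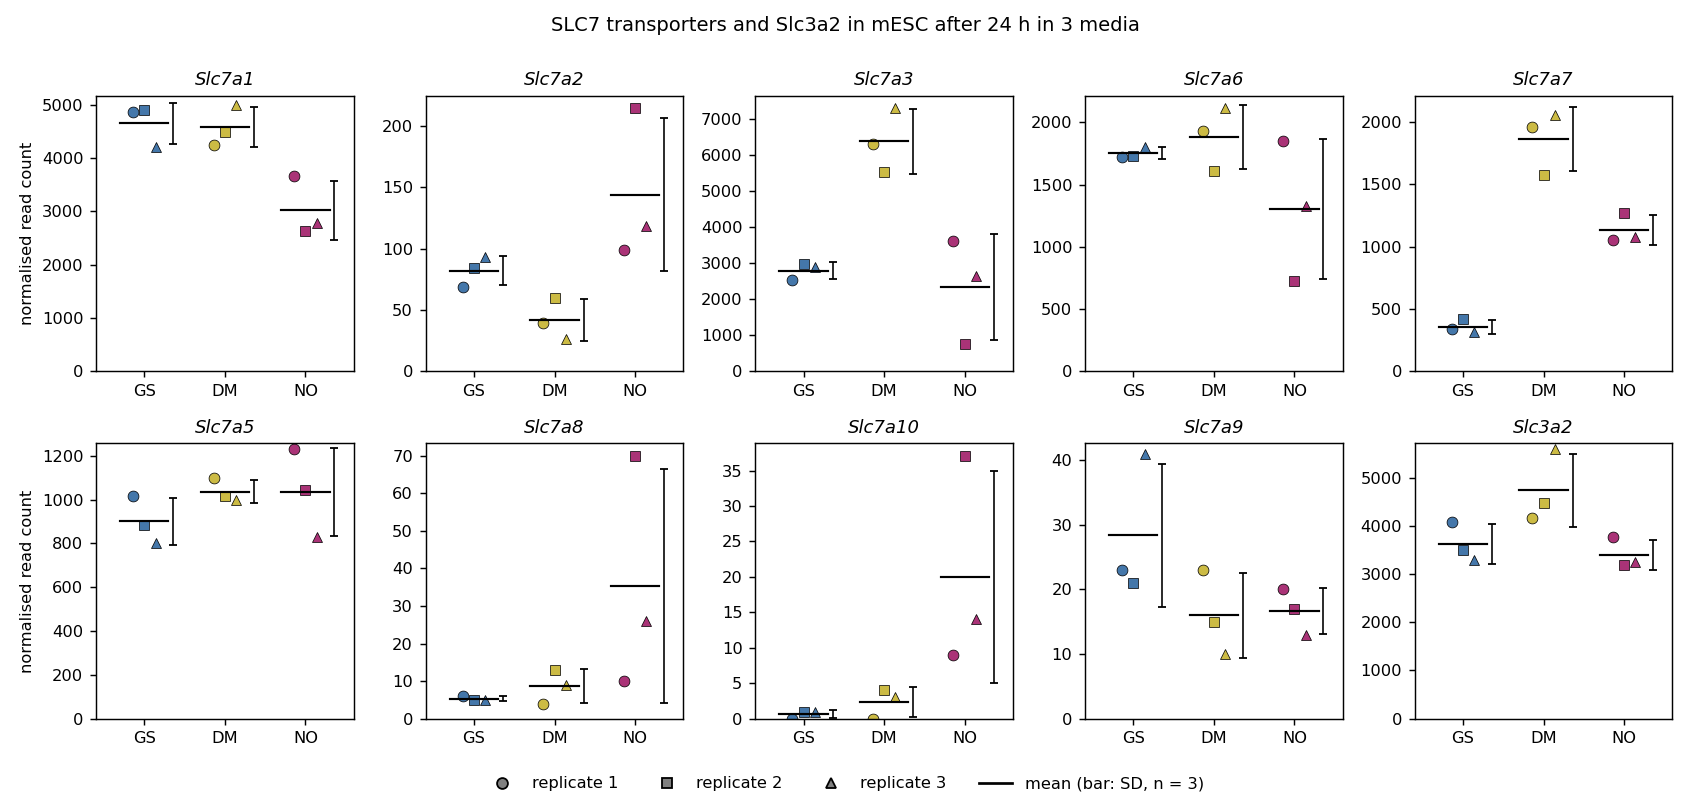
Normalised read count (linear axis, starting at 0) of each transporter gene in the 3 media, with 1 symbol per library (circle, square and triangle for replicates 1, 2 and 3), the mean as a line and the SD (n = 3) as a bar. *Slc7a7* lies at 418 or less in GS and at 1576 or more in DM, and the square of NO lies lowest for *Slc7a3* (745) and highest for *Slc7a10* (37).

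*Slc7a7* (ENSMUSG00000000958, GRCm38 chromosome 14, 54369442 to 54417780, minus strand) encodes a light chain of *Slc3a2* that sends cationic amino acids out of the cell in exchange for neutral amino acids and sodium, and its human counterpart is mutated in lysinuric protein intolerance. Its normalised read count, given here and below in the order of replicates 1, 2 and 3, was 340, 418 and 311 in GS. It was 1960, 1576 and 2057 in DM and 1054, 1273 and 1076 in NO. All values in DM and NO lay above all values in GS, and all values in NO lay below all values in DM, with no overlap between any of the media. In DM, *Slc7a7* rose by 2.39 ± 0.16 (SE) on the log2 scale against GS, or 5.23-fold. In NO, it rose by 1.67 ± 0.16 against GS, or 3.19-fold, and the value without NO replicate 2 was 1.59 ± 0.17. Both calls were made whichever single library was left out. Between NO and DM the difference was -0.71 ± 0.16, under the 2-fold limit, and it was not called with any library left out (-0.80 ± 0.17 without NO replicate 2). Thus NO replicate 2, the lowest library for *Slc7a3*, was the highest of its group for *Slc7a7*.

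At its 3′ end, *Slc7a7* shares exon bases with *Oxa1l*, a gene on the opposite strand that encodes a protein of the mitochondrial inner membrane. The shared stretch is 232 bases long (GRCm38 chromosome 14, 54369442 to 54369673), which is 7.00% of the exon bases of *Slc7a7* and 5.21% of those of *Oxa1l*. According to the study's methods, ambiguous reads were not counted. Use of the strand was not stated: with it, reads in this stretch would count for their own gene, and without it for neither. *Oxa1l* was at 1927, 1989 and 1597 normalised read counts in GS, at 1933, 2015 and 1940 in DM and at 1728, 1642 and 1777 in NO. Its levels in DM and GS overlapped, and its log2 fold changes were 0.10 ± 0.12 in DM against GS, -0.09 ± 0.12 in NO against GS and -0.19 ± 0.12 in NO against DM, none of them called. The values in NO were -0.06 ± 0.13 and -0.16 ± 0.13 without NO replicate 2. *Oxa1l* therefore did not show the 5.23-fold difference of its neighbour.

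**Figure D2:**
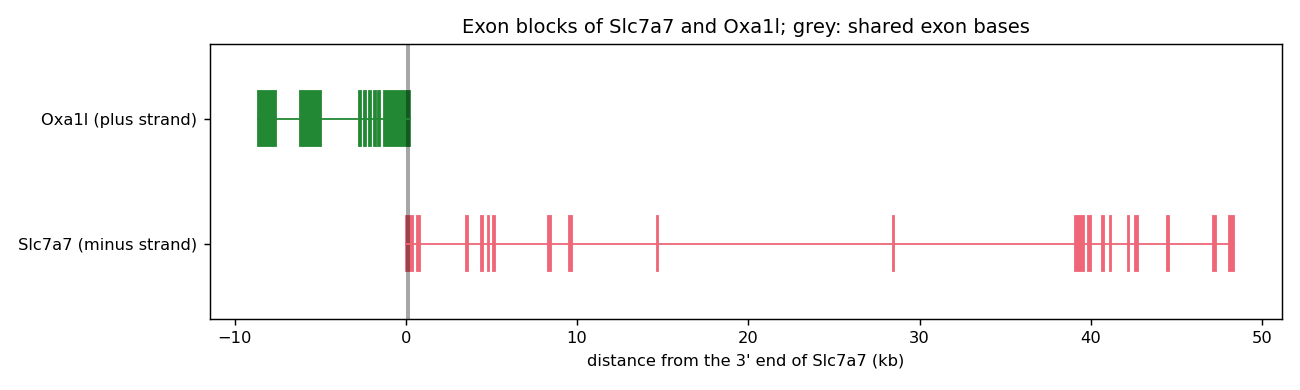
Exon blocks (boxes) of *Slc7a7* and *Oxa1l*, drawn to scale against the distance in kb from the 3′ end of *Slc7a7*, with the shared exon bases in grey. The overlap of 232 bases sits at the last exon of each gene, and the rest of both genes is free of the other.

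*Slc7a7* is also known from macrophages and blood cells, and 8 of 9 markers of those cells were in the table. Their summed level was 204 to 271 in GS, 298 to 435 in DM and 477 to 735 in NO, and was mostly that of *Cd68*, which encodes a lysosomal protein. *Ptprc*, *Adgre1* (listed as *Emr1*) and *Tyrobp*, which define these cells, were at 2 or less in every library, and *Hba-a1* at 1 or less. *Cd14* was at 3 to 14 in GS, 6 to 24 in DM and 19, 40 and 21 in NO, while *Csf1r* (2 to 18) and *Lyz2* (0 to 8) overlapped between the media. Fibroblast markers summed to 99 to 122 in GS, 231 to 249 in DM and 213 to 296 in NO. The higher sum in DM was that of *Thy1* (59 to 60 in GS, 168 to 211 in DM, 158 to 176 in NO). *Col1a2* was at 15 to 24 in GS and 7 to 15 in DM. *Col1a1* was at 13 to 21 in GS, 13 to 20 in DM and 39 to 88 in NO. *Dcn*, *Lum*, *Postn* and *Col3a1* were at 19 or less in every library. The part of either list in the level of *Slc7a7* was not tested.

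The start of *Slc7a7* is shown because this gene had the largest called difference between DM and GS among the 10 and because 2 of its promoter windows held a motif that few windows hold. RefSeq promoter windows (GRCm38.p6, the 250 bases before each annotated start) were given for 7 of the 10 genes, with 14 windows in all, some of which overlap within a gene. They were searched on both strands for TGATGNAA, the core of the composite site for C/EBP and ATF factors that is known from genes that respond to a shortage of amino acids. It occurred in 2 of 14 windows, both of *Slc7a7*, and in 3.45% of 32851 windows of the whole set. *Slc7a7* had more windows than any other of the 7 genes, and its remaining windows held no match. No window was given for *Slc7a2*, *Slc7a3* and *Slc7a5*. An excess over the whole set is therefore not read from this count. The search also took in CACCTG, the core of the site of Zeb1, the repressor the study is about. This occurred in 1 of 14 windows, that of *Slc7a6*, starting 194 bases before the start, and in 17.2% of all windows. No match of one motif overlapped a match of the other. In the lines below, which read 5′ to 3′ on the minus strand, capitals mark TGATGNAA, which lies 141 bases before the start in the first; the second is the 30 bases around the next match.
Slc7a7, chr14:54417945-54418194: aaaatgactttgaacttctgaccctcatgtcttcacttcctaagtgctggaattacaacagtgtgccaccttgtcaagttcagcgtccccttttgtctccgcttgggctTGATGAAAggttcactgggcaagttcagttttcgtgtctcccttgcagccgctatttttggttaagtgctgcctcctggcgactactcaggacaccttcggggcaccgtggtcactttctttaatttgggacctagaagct
Slc7a7, chr14:54417923-54417952: tagaagcTGATGCAAcagcttccccgaggg
A match of letters is no evidence that a factor binds there, and counts per gene do not show which of the annotated starts was used.

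The 3 cationic amino acid transporters, which carry arginine into the cell without a heavy chain, each took a different course. *Slc7a3* (chromosome X, 101079210 to 101086020, minus strand), the form known from brain and early embryo, was at 2516, 2962 and 2895 in GS and at 6319, 5519 and 7314 in DM. In NO it was at 3622, 745 and 2654. DM lay above GS without overlap and NO below DM, whereas the values of NO fell on both sides of those of GS. In DM, the log2 fold change against GS was 1.19 ± 0.43, or 2.28-fold, which was not called in the fit of all 9 libraries. Without NO replicate 2 the estimate was the same, its SE was 0.15 and the difference was called, since this library raised the spread that the 3 media share in the fit. In NO against DM, *Slc7a3* fell by 1.72 on the log2 scale (SE 0.43), and by 1.03 (SE 0.17) without NO replicate 2. Both were called, but the call was lost when any single library of DM was left out. Against GS, NO differed by -0.53 ± 0.43, and by 0.16 ± 0.17 without NO replicate 2.

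*Slc7a1* (chromosome 5, 148327410 to 148399904, minus strand), the form most cells use, was at 4860, 4899 and 4209 in GS, at 4251, 4502 and 4999 in DM and at 3660, 2639 and 2775 in NO. The levels in GS and DM overlapped, with a log2 fold change of -0.02 ± 0.15. All 3 values in NO lay below those in GS and DM, by -0.63 ± 0.15 and -0.61 ± 0.15. Without NO replicate 2, these differences were -0.54 and -0.52, and all were under 2-fold and not called.

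*Slc7a2* (chromosome 8, 40862396 to 40922308, plus strand), the cationic transporter known from liver and from activated macrophages, was the only one of the 3 with a higher mean in NO than in GS and DM. It was at 69, 84 and 93 in GS, at 39, 60 and 26 in DM and at 99, 215 and 118 in NO, with no overlap between any of the media. In NO against DM it rose by 1.76 ± 0.35 on the log2 scale, or 3.39-fold, and by 1.43 ± 0.33 without NO replicate 2, and it was called with any library left out. In DM against GS its difference was -1.03 ± 0.35, not called with all libraries but called without NO replicate 2 (SE 0.29). NO and GS differed by 0.73 ± 0.35 and by 0.40 ± 0.33 without that library, and this was not called. Exons of *Slc7a2* share 635 bases, 6.95% of its own, with *Gm26584* on the opposite strand, a noncoding RNA gene at 2 to 11 in the 9 libraries.

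*Slc7a6* (chromosome 8, 106168857 to 106198706, plus strand) encodes the second exchanger of cationic for neutral amino acids besides *Slc7a7*. It was at 1721, 1728 and 1806 in GS, at 1929, 1609 and 2118 in DM and at 1853, 725 and 1331 in NO. The 3 media overlapped, and its log2 fold change in DM against GS was 0.10 ± 0.27. In NO it differed from GS by -0.53 ± 0.27 and from DM by -0.63 ± 0.27, and without NO replicate 2 by -0.16 ± 0.17 and -0.25 ± 0.17. Hence most of the lower mean of *Slc7a6* in NO came from 1 library.

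To set these genes side by side, levels were divided by the annotated exon length of each gene, and 5 carriers of cationic amino acids (*Slc7a1*, *Slc7a2*, *Slc7a3*, *Slc7a6* and *Slc7a7*) were summed. *Slc7a9*, described below, also takes up cationic amino acids but was not in the sum. On this per-kilobase scale the summed level was 1641 ± 74.7 in GS and 3064 ± 385 in DM (SD, n = 3 each), and 2009, 992 and 1571 in the 3 libraries of NO. All DM libraries lay above all GS and NO libraries. *Slc7a3* made up 44.9% ± 2.4 of the sum in GS and 55.0% ± 0.86 in DM. In NO, its share was 47.6%, 19.8% and 44.7%. The share of *Slc7a7* was 6.53% ± 0.78 in GS and 18.3% ± 0.88 in DM, and 15.8%, 38.7% and 20.7% in NO, above GS in every library. Meanwhile *Slc7a1*, level in counts between GS and DM, went from 24.6% ± 2.2 to 13.1% ± 1.3 of the sum, and *Slc7a6* from 23.4% ± 1.2 to 13.5% ± 0.35. *Slc7a2* was the smallest part in each medium, with means of 0.546% in GS and 0.156% in DM, and with 0.539%, 2.37% and 0.822% in the libraries of NO.

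**Figure D3:**
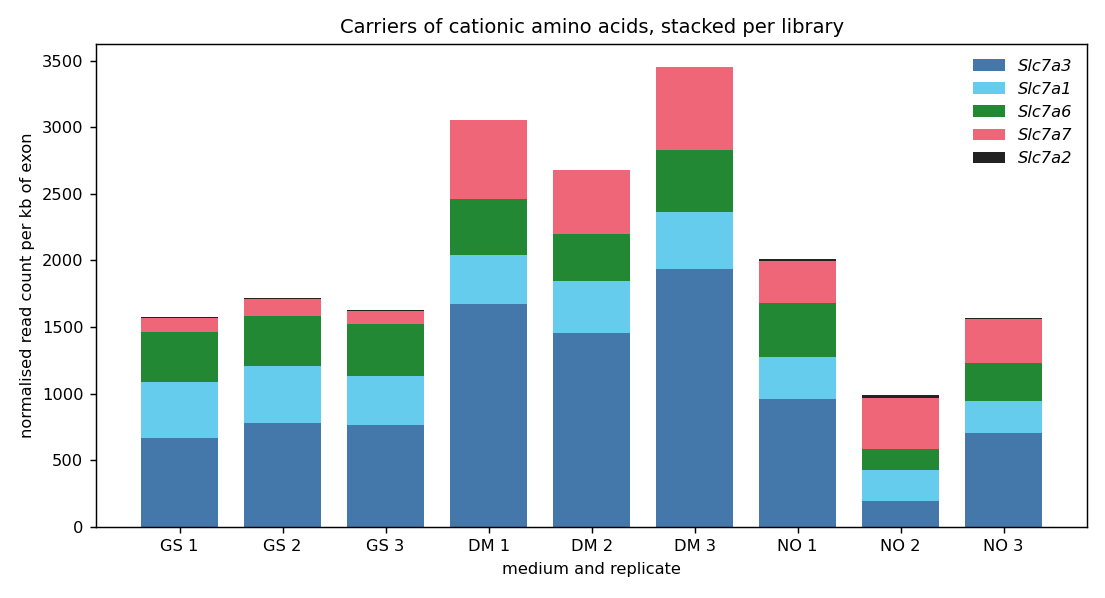
Stacked bars of the 5 summed carriers of cationic amino acids (without *Slc7a9*) in each library, as normalised read count per kb of exon (linear axis from 0). The DM bars reach 3056, 2683 and 3453, the GS bars 1573 to 1721, and in NO replicate 2 (992) *Slc7a7* is the largest block.

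Between the exchangers, the ratio of *Slc7a7* to *Slc7a6* per kilobase was 0.281 ± 0.049 in GS against 1.36 ± 0.033 in DM, and 0.784, 2.42 and 1.11 in the libraries of NO. Thus the exchanger with the lower level in GS had the higher level in every DM library. Among the importers, the ratio of *Slc7a3* to *Slc7a1* was 1.84 ± 0.26 in GS and 4.24 ± 0.44 in DM. It was 3.02, 0.860 and 2.91 in NO, so NO replicate 2 was the only library with more *Slc7a1* than *Slc7a3*. With the length of the longest annotated transcript in place of all exon bases, the share of *Slc7a7* was 6.79% in GS and 19.1% in DM, and that of *Slc7a3* 44.1% and 54.1%. In NO replicate 2 these shares were 39.4% and 19.1%, and the means of the other two NO libraries 19.0% and 45.5%.

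The light chains for neutral amino acids were mostly low, with 1 exception. *Slc7a5* (chromosome 8, 121881150 to 121907694, minus strand), the main entry path for leucine and other large neutral amino acids, ranged from 804 to 1018 in GS, 998 to 1097 in DM and 831 to 1231 in NO. The media overlapped, its log2 fold changes lay between -0.02 and 0.21 with an SE of 0.16, and none was called. NO differed from GS by 0.17 ± 0.17 and from DM by -0.03 ± 0.17 when NO replicate 2 was left out. *Slc7a8* (chromosome 14, 54722209 to 54781946, minus strand), a related carrier known from kidney and placenta, lies 304.4 kb from *Slc7a7*. It was at 6, 5 and 5 in GS, at 4, 13 and 9 in DM and at 10, 70 and 26 in NO. NO lay above GS without overlap but overlapped DM. Its log2 fold change in NO against GS was 2.13 ± 0.63, called with all libraries, and 1.45 ± 0.58, not called, without NO replicate 2. The call was also lost without any 1 library of GS or without NO replicate 3. Summed over each group, about 89 reads in NO stood against 16 in GS, a ratio of 5.25 (95% exact interval 3.06 to 9.58, counting error only). In NO against DM the log2 fold change was 1.64 ± 0.63 (0.96 ± 0.58 without NO replicate 2), and in DM against GS it was 0.49 ± 0.63, none called.

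*Slc7a10* (chromosome 7, 35186385 to 35201114, plus strand), the carrier of small neutral amino acids known from brain and fat, was close to the limit of detection outside NO. It was at 0, 1 and 1 in GS, at 0, 4 and 3 in DM and at 9, 37 and 14 in NO. All NO values were above all others, and the GS and DM values overlapped. About 53 reads in NO stood against 2 in GS and 9 in DM. The ratios were 25.0 (95% exact interval 6.59 to 212) for NO against GS, 7.00 (3.42 to 16.1) for NO against DM and 3.58 (0.740 to 34.0) for DM against GS, with depth taken into account and for counting error only. In the fit, *Slc7a10* rose in NO by 3.49 ± 0.76 on the log2(value + 1) scale against GS and by 2.72 ± 0.76 against DM. Without NO replicate 2, the first was 2.95 ± 0.83 and still called, and the second was 2.17 ± 0.83 and not called. The call against DM was also lost without NO replicate 3, GS replicate 2 or any library of DM. *Slc7a10* passed the filter through NO alone, so nothing is read from its calls there or from these ratios. The ratios pool the libraries of each medium, NO replicate 2 included, and leave out the spread between libraries. Exons of *Slc7a10* share 377 bases, 17.9% of its own, with *Lrp3* on the opposite strand. *Lrp3* was at 56 to 71 in GS, 82 to 94 in DM and 51 to 86 in NO. NO replicate 2 held the lowest value of *Lrp3* (51) and the highest of *Slc7a10*.

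*Slc7a9* (chromosome 7, 35448796 to 35466036, plus strand) lies 247.7 kb from *Slc7a10* and pairs not with *Slc3a2* but with *Slc3a1* to take up cystine and cationic amino acids in kidney. It was at 23, 21 and 41 in GS, at 23, 15 and 10 in DM and at 20, 17 and 13 in NO. Its NO values lay just below those of GS, by -0.69 ± 0.41 on the log2 scale (-0.71 ± 0.45 without NO replicate 2), and its DM values overlapped both. Between NO and DM the difference was 0.11 ± 0.41, and 0.09 ± 0.45 without that library. Its partner *Slc3a1* was at 2 to 17 in all libraries and was not called either, so both chains of this heterodimer were low in mESC.

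*Slc3a2* (chromosome 19, 8706882 to 8723369, minus strand), the heavy chain that the light chains *Slc7a5*, *Slc7a6*, *Slc7a7*, *Slc7a8* and *Slc7a10* share, was at 4084, 3490 and 3293 in GS. It was at 4155, 4470 and 5588 in DM and at 3760, 3184 and 3251 in NO. The DM values lay above all others, by 0.38 ± 0.15 on the log2 scale against GS, and NO lay below DM by -0.47 ± 0.15 and overlapped GS (-0.09 ± 0.15). These differences were -0.43 ± 0.16 and -0.05 ± 0.16 without NO replicate 2. No difference reached 2-fold. The 5 light chains named here were summed, and other light chains, such as *Slc7a11* (described below), were left out. Their summed level per kilobase was 735 ± 24.9 in GS against 1257 ± 133 in DM (SD, n = 3 each). It was 1062, 856 and 852 in the libraries of NO. Divided by *Slc3a2* on the same scale, this gave 0.721 ± 0.060 in GS against 0.948 ± 0.14 in DM, and 0.996, 0.948 and 0.925 in NO, and each DM and NO library was above each GS library.

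On the per-kilobase scale, the order of levels differed between media. In GS it ran from *Slc3a2* (1026) over *Slc7a3* (738), *Slc7a1* (404), *Slc7a6* (383), *Slc7a5* (243) and *Slc7a7* (107) to *Slc7a9* (10.6), *Slc7a2* (8.98), *Slc7a8* (1.07) and *Slc7a10* (0.316), all as means of normalised read counts per kb. Neighbours in this order were separate except *Slc7a1* and *Slc7a6*, and *Slc7a9* and *Slc7a2*, whose ranges overlapped. In DM, *Slc7a3* (1687) and *Slc3a2* (1342) overlapped at the top, and *Slc7a7* (562) held the third place, apart from *Slc3a2* above it and from *Slc7a6* (413) below it. *Slc7a6* and *Slc7a1* (398) overlapped, *Slc7a5* (280) followed apart from them, and the other 4 genes had means under 6 per kb. In NO, the first 6 genes, from *Slc3a2* (963) and *Slc7a3* (618) over *Slc7a7* (342), *Slc7a6* (285) and *Slc7a5* (279) to *Slc7a1* (262), each overlapped the next, and so did the last 4, *Slc7a2* (15.8), *Slc7a10* (9.47), *Slc7a8* (7.06) and *Slc7a9* (6.23). Without NO replicate 2, the means in NO were 993 for *Slc3a2*, 829 for *Slc7a3*, 348 for *Slc7a6*, 321 for *Slc7a7*, 279 for *Slc7a1* and 278 for *Slc7a5*, so *Slc7a6* then stood before *Slc7a7*. The last 4 were *Slc7a2* (11.9), *Slc7a9* (6.17), *Slc7a10* (5.45) and *Slc7a8* (3.60). With the longest transcript as length, 10, 8 and 7 genes kept their rank in GS, DM and NO, *Slc7a1* moving ahead of *Slc7a6* in DM and of *Slc7a6* and *Slc7a5* in NO, and *Slc7a7* kept its rank in DM and NO. In DM, *Slc7a7* then overlapped *Slc7a1* as the next gene, and *Slc7a3* no longer overlapped *Slc3a2*.

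**Figure D4:**
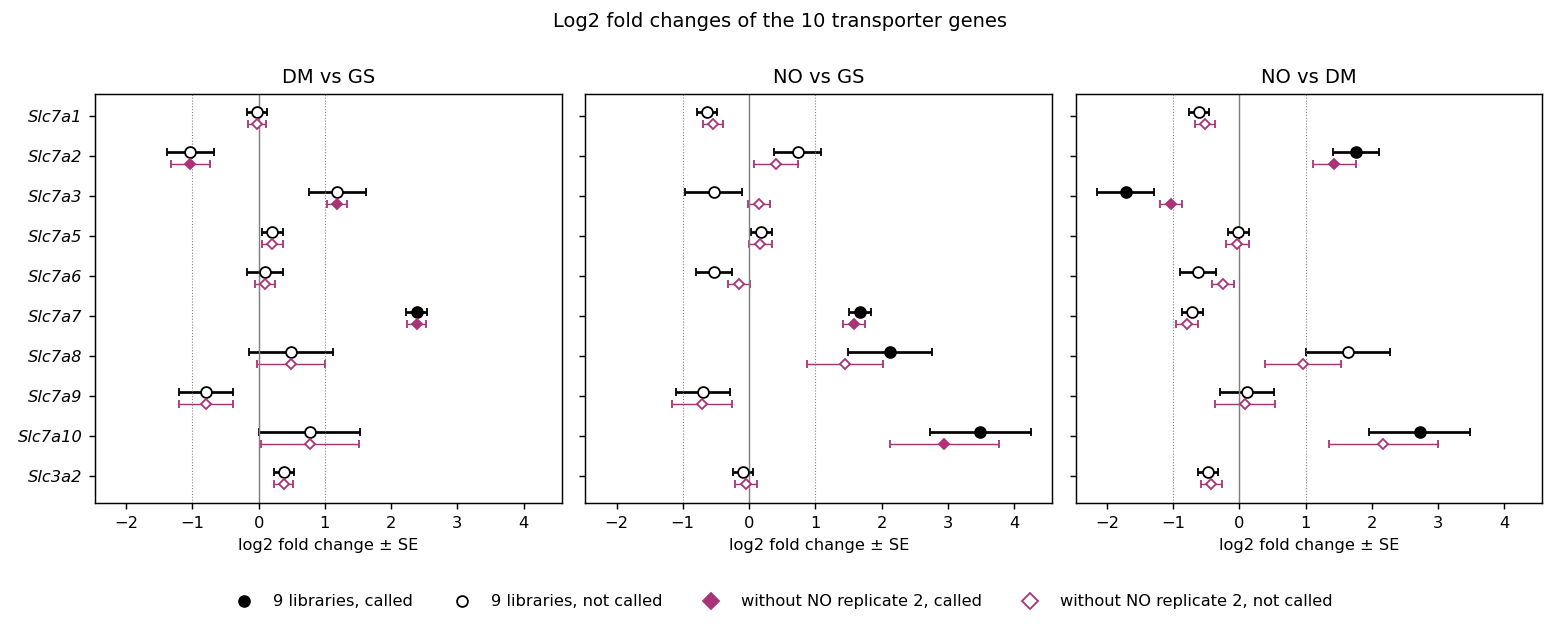
Log2 fold change ± SE of each transporter gene in the 3 comparisons, for the fit of all 9 libraries (circles) and without NO replicate 2 (diamonds), filled where the gene was called. Dotted lines mark a 2-fold difference. *Slc7a7* is filled in both comparisons with GS in either fit, while *Slc7a3* and *Slc7a2* in DM against GS are filled only without NO replicate 2.

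Over the 10 genes, the median log2 fold change was 0.29 in DM against GS, 0.05 in NO against GS and -0.25 in NO against DM, where the medians over all genes tested were near 0. The latter 2 were 0.16 and -0.14 when NO replicate 2 was left out. Media did not overlap for 4, 6 and 6 of the 10 genes in these comparisons, beside 29.6%, 39.1% and 33.4% of all genes. Without NO replicate 2, 3, 2 and 2 of the 10 were called, beside 5.3%, 8.01% and 4.44% of all genes in that fit. The members were chosen with these differences in view, and nothing particular to them is read from the counts. Across the 9 libraries, the level of *Slc7a2* ran opposite to that of *Slc7a3* (Pearson's r = -0.91 on the log2 scale) and *Slc7a8* ran with *Slc7a10* (r = 0.93), given as a description, since the points share their media and NO replicate 2 lies at the end of each. Over the other 8 libraries, these were -0.865 and 0.89.

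Genes whose pattern over the 9 libraries was most like that of a member were sought by Pearson's r on the log2 scale among 11305 genes with a mean above 50. The values of r below are a description, since they are the highest among these genes and the libraries share their media. The search was not repeated without NO replicate 2. For *Slc7a7*, the closest were *Mkrn1* (r = 0.99), *Epas1* (0.99), which encodes the hypoxia-inducible factor HIF-2α, and *Rarg* (0.98), a retinoic acid receptor. *Epas1* was at 364, 395 and 323 in GS, 1251, 1508 and 1452 in DM and 870, 988 and 853 in NO, the same order of media as *Slc7a7*. For *Slc7a3*, they were *Rasgrp2*, *Fbxo22* and *Pirt* (r = 0.99 each), all lowest in NO replicate 2. For *Slc7a2* they were *Hhex*, a transcription factor of early endoderm, *Tex15* and *Megf9* (r = 0.99 each), with *Hhex* at 75, 89 and 110 in GS, 48, 60 and 38 in DM and 114, 197 and 120 in NO. For *Slc7a10* they were *Alkbh3* (0.97), *Akr1b10* (0.97) and *C4b* (0.96), and for *Slc7a8* *Akr1b10* (0.98), *Trappc10* (0.97) and *Klf9* (0.97), each highest in NO replicate 2.

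Of the SLC7 genes outside the 10, *Slc7a4* was at 81, 60 and 60 in GS, 75, 78 and 102 in DM and 106, 137 and 171 in NO, and rose by 1.02 ± 0.25 on the log2 scale in NO against GS (limma, adjusted p = 0.0146), and by 1.01 without NO replicate 2. *Slc7a11*, the cystine and glutamate exchanger, was at 21 to 57 in all libraries and was not called. *Slc7a12* and *Slc7a13* were at 1 or 0, *Slc7a14* at 0 to 22 and *Slc7a15* at 1 to 13, so *Slc7a4* and *Slc7a11* were the only SLC7 genes outside the 10 with more than 22 normalised read counts in any library.

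A list of 47 other amino acid transporters, of which 34 were tested, had 1 gene called higher and 1 lower in DM against GS, 5 higher and 1 lower in NO against GS, and 2 higher and 3 lower in NO against DM. The shares called were 5.88%, 17.6% and 14.7%, and those of all genes 4.2%, 11.7% and 8.55%. The median log2 fold changes of the list were 0.03, 0.10 and 0.03. *Slc1a3*, a glutamate and aspartate carrier, was at 90, 113 and 103 in GS, 498, 426 and 421 in DM and 247, 118 and 195 in NO, and like *Slc7a7* had its highest values in DM. It rose by 2.13 ± 0.25 in DM against GS (limma, adjusted p = 0.000454) and fell by 1.32 on the log2 scale in NO against DM (adjusted p = 0.00771), and was called in both without NO replicate 2. *Slc1a1*, another glutamate carrier, was highest in NO, at 146, 244 and 160 against 64, 39 and 52 in GS, a log2 fold change of 1.80 ± 0.27 (limma, adjusted p = 0.00132), and it was 1.16 in NO against DM (adjusted p = 0.0170), not called without NO replicate 2. *Slc43a2*, a carrier of large neutral amino acids that needs no heavy chain, was at 369, 379 and 360 in GS, 565, 536 and 577 in DM and 720, 1586 and 889 in NO, and rose by 1.44 ± 0.23 in NO against GS (limma, adjusted p = 0.00199).

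*Slc38a3*, a glutamine carrier, rose by 2.42 ± 0.47 in NO against GS (limma, adjusted p = 0.00518), with 128, 598 and 239 in NO and 38 to 75 in GS. The calls of *Slc1a1*, *Slc43a2*, *Slc38a3* and *Slc7a4* in NO against GS were also made without NO replicate 2. Of the 9 fits that left out 1 library, *Slc7a4* was called in 6 and each of the others in all 9. The proline carrier *Slc6a7* fell by 1.10 in DM against GS (limma, adjusted p = 0.0195) and by 1.14 in NO against GS (limma, adjusted p = 0.00800). Without NO replicate 2 the latter was -0.96, under the 2-fold limit. With 1 library left out, *Slc6a7* was called in 5 of 9 fits in DM against GS and in 8 of 9 in NO against GS. In NO against DM, *Slc38a8* rose by 1.89 ± 0.42 (limma, adjusted p = 0.0159) and *Slc1a4*, a carrier of alanine, serine and cysteine, fell by 1.21 (adjusted p = 0.0185). These were 1.58 and -1.09 and not called without NO replicate 2, and then the list had 3, 6 and 1 genes called in the 3 comparisons.

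What becomes of arginine inside the cell was followed in a list of 38 genes of arginine and polyamine metabolism, 37 of which were tested. In DM against GS 1 was called, higher, in NO against GS 4 were, all higher, and in NO against DM 3 were called higher and 1 lower, that is 2.70%, 10.8% and 10.8% of the list, beside 4.2%, 11.7% and 8.55% of all genes. The list had 1, 3 and 2 genes called without NO replicate 2, beside 5.3%, 8.01% and 4.44% of all genes. Its median log2 fold changes were 0.05, -0.16 and -0.25. *Azin2* (listed as *Adc* and matched by its identifier), an antizyme inhibitor that acts on polyamine synthesis and uptake, was at 279, 247 and 210 in GS, 371, 355 and 460 in DM and 911, 3110 and 1639 in NO. It rose by 2.77 ± 0.34 in NO against GS (limma, adjusted p = 0.000662) and by 2.08 ± 0.34 against DM (adjusted p = 0.00437), and both were called without NO replicate 2. *Gatm*, which makes guanidinoacetate from arginine on the way to creatine, was at 10, 12 and 19 in GS, 6, 8 and 10 in DM and 38, 142 and 59 in NO. It rose by 2.29 ± 0.48 against GS (limma, adjusted p = 0.00715) and by 2.97 ± 0.48 against DM (adjusted p = 0.00415), with or without NO replicate 2.

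*Arg2*, the mitochondrial arginase, was at 14 to 15 in GS, 5 to 21 in DM and 27, 183 and 103 in NO. It rose by 2.37 ± 0.63 against GS (limma, adjusted p = 0.0226) and by 2.80 ± 0.63 against DM (adjusted p = 0.0164), but neither was called without NO replicate 2. *Sms*, which encodes spermine synthase, was at 913, 727 and 579 in DM and 522, 133 and 267 in NO and fell by 1.45 (limma, adjusted p = 0.0288), again not called without that library. *Nos3*, the endothelial nitric oxide synthase on which the study centres, was the 1 gene of the list called in DM against GS. It had the same order of media as *Slc7a7*, with 19 to 26 in GS, 79 to 106 in DM and 41 to 71 in NO. Its log2 fold changes of 1.97 and 1.13 against GS (limma, adjusted p = 0.00176 and 0.0178) stood beside 2.39 and 1.67 for *Slc7a7*, and the second was 1.28 without NO replicate 2. With 1 library left out, *Nos3* was called in 9 of 9 fits in DM against GS and in 7 of 9 in NO against GS.

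**Figure D5:**
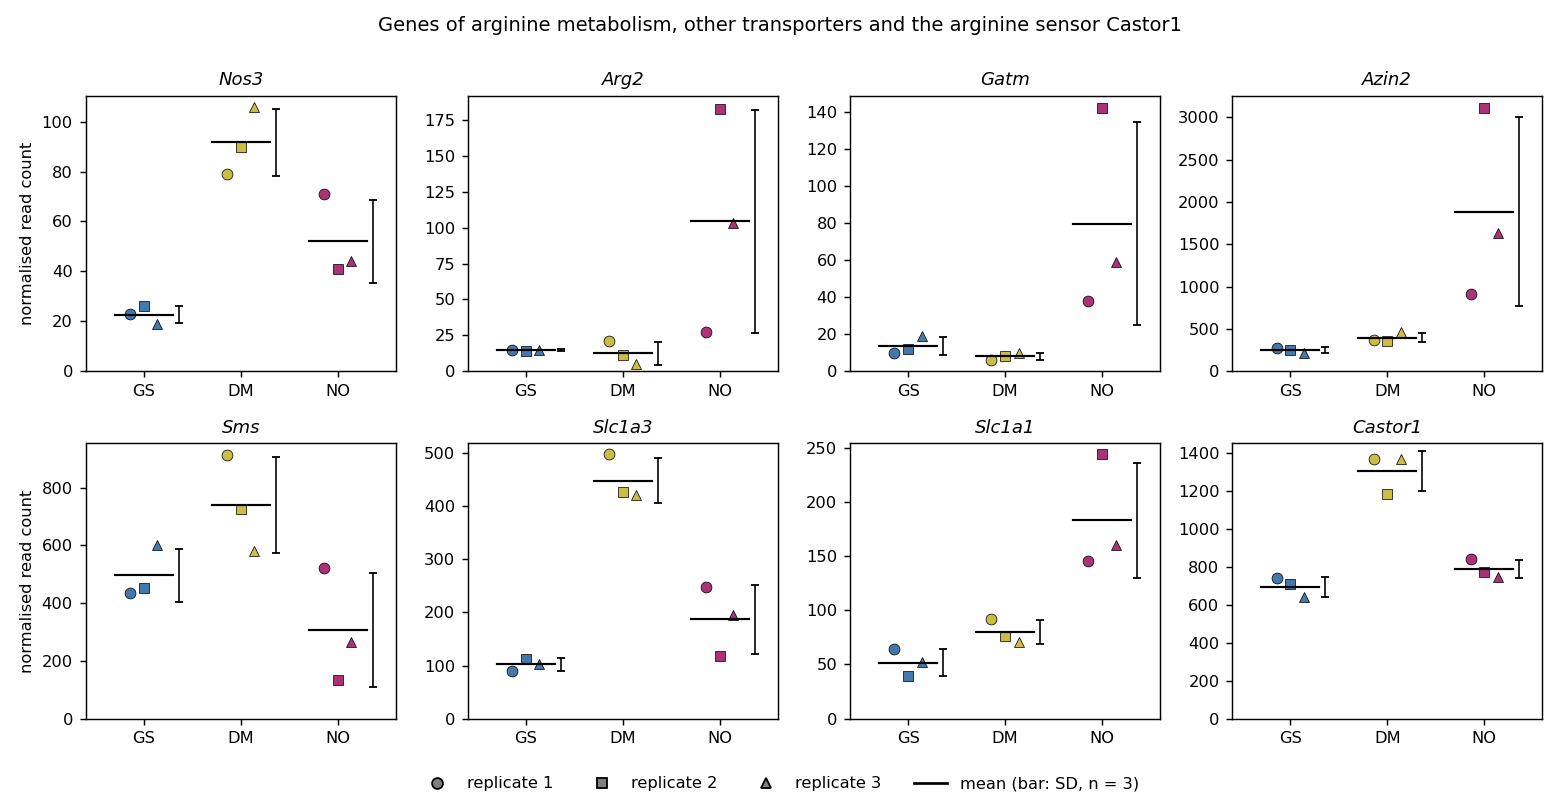
Normalised read count (linear axis from 0) of genes of arginine metabolism, of other transporters and of the arginine sensor *Castor1* in the 3 media, with 1 symbol per library, the mean as a line and the SD (n = 3) as a bar. *Azin2*, *Gatm* and *Arg2* are highest in NO replicate 2 (3110, 142 and 183), while *Nos3*, *Slc1a3* and *Castor1* are highest in DM.

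Of 30 genes that sense amino acids or pass the signal to mTORC1, all tested, none was called by limma in any of the 3 comparisons, with or without NO replicate 2. By the adjusted p-value alone 2, 4 and 3 were past the threshold (6.69%, 20% and 14.2% of all genes were), and 5, 7 and 8 had an unadjusted p-value under 0.05. The gene nearest to a call in DM against GS was *Castor1* (listed as *Gatsl3*), the cytosolic arginine sensor, which was singled out after its values were seen. It was at 742, 708 and 639 in GS, 1368, 1184 and 1369 in DM and 843, 774 and 749 in NO. DM lay above both other media without overlap, by 0.91 ± 0.13 on the log2 scale against GS (limma, adjusted p = 0.00157). NO differed from DM by -0.73 (limma, adjusted p = 0.00643), and by -0.71 without NO replicate 2, and all were under 2-fold. The other of the 2 genes past the adjusted p-value threshold in DM against GS was *Rragd*. It was lower in DM, by -0.90 ± 0.17 (limma, adjusted p = 0.00772), also under 2-fold.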

How the data were processed

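Total RNA-Seq libraries of mESC-D3 in GS, DM and NO (3 each) were analysed. Media and replicate numbers came from the labels, and columns were matched to samples by title. According to the study's methods and the submitters' processing notes, reads from ribosome-depleted RNA (Ion Torrent Proton) were aligned to GRCm38 with STAR 2.4.0a and counted over exons with featureCounts 1.4.5-p1, ambiguous reads being left out. Each deposited value is a normalised score, i.e. a read count divided by a DESeq2 size factor and rounded by the authors. A count model was therefore not fitted.

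The log2(value + 1) of 18156 genes (mean above 5) was fitted with limma (3.58.1, under R 4.3.3) for the 3 media, using a mean-variance trend, two-sided tests and Benjamini-Hochberg adjustment. The thresholds of 0.05 and 2-fold are those of the study. The procedure was tested on simulated data for DM against GS, with changes only in genes with a mean above 50 and no library that stood apart. Of 100 genes changed by 1.5 and 100 changed by 2.5 on the log2 scale, 99% and 100% were called. The simulation did not cover the comparisons with NO or genes with low values. RNA came from 1 dish per sample, and the study's methods speak of independent experiments in general, but the labels do not say which experiment each library came from. P-values measure the spread between these libraries, which may be technical. Reads behind low values were estimated from the value of 1 read in each library (0.701 to 1.32), and 95% exact intervals cover counting error only.

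The members, lists and naming rule were chosen with earlier results of these data known. The rule named all members, genes whose exons overlap theirs, other SLC7 genes with *Slc3a1*, up to 4 called genes per list and comparison by adjusted p-value, and the 3 genes most like each called member. Positions, lengths and overlaps come from GENCODE M21. Proteins were not analysed here.

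Replicate numbers recur in each medium. Deviations of same-numbered NO and DM libraries from their group means correlated at 0.159, 0.167 and 0.296, so these were taken as paired from the data, and those with GS were not. The main fit left this pairing out. The replicate number entered only as a block over all media, among the alternatives. The alternatives comprised fits of 6 libraries, a replicate block, minimum means of 0 or 50, pseudocounts of 0.5 or 5, other scalings, weights or moderation, no minimum fold change, and each library left out.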

Additional observations from a re-analysis of the deposited data

How the results depend on the processing

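Over 19 alternatives, the 561 recomputed log2 fold changes of the 10 transporters kept their direction wherever the gene was called. Many could not differ. A replicate block, a fit of 6 libraries, another minimum mean, moderation without a trend or omission of a third-medium library leaves the estimate unchanged. Only 1 moved beyond the larger SD of the media compared, that of *Slc7a10* in NO against GS (1.99 with a pseudocount of 5). In NO, this SD includes the spread from replicate 2. Without NO replicate 2, some moved by more than their SE, such as *Slc7a3* in NO against DM (-1.72 to -1.03, SE 0.43). With only the 6 libraries of the media compared, 2 of 10 transporters were called in DM against GS and 1 in NO against DM, where 3 other transporters and 2 arginine metabolism genes were called. In those fits 5% of all genes were called in DM against GS and 5.02% in NO against DM, where the fit of 9 libraries gave 4.2% and 8.55%. With a minimum mean of 50, which left 7 of the 10 transporters, 1 was called in NO against GS, beside 9.73% of all genes. That minimum gave 3 other transporters in NO against DM, beside 7.55% of all genes, and 2 arginine metabolism genes in each comparison with NO. Moderation without a trend gave 1 of the 10 and 3 other transporters in NO against DM, beside 6.24% of all genes. With no minimum fold change, 5 of the 10 were called in NO against DM. Of all genes, 6.69%, 20% and 14.2% were then called in DM against GS, NO against GS and NO against DM. Other transporters called were then 11 in NO against GS and 9 in NO against DM, arginine metabolism genes 5, 8 and 7, and sensing genes 2, 4 and 3 in DM against GS, NO against GS and NO against DM. The cause was not tested.

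Leaving out each library in turn gave 1 to 3 of the 10 called in DM against GS, 2 to 3 in NO against GS and 1 to 4 in NO against DM. For other transporters it gave 1 to 3, 4 to 7 and 1 to 9, for arginine metabolism 1, 3 to 6 and 2 to 6, and for sensing 0, 0 to 1 and 0 to 2. Of all genes, 2.8% to 5.3%, 8.01% to 15.6% and 4.44% to 13.8% were called in these fits. With the replicate number as a block, 1, 3 and 3 of the 10 were called, with no call of a member changed, 2, 5 and 5 other transporters, 1, 4 and 4 arginine metabolism genes and 0 sensing genes. The block gave 3.71%, 11.5% and 8.55% of all genes. Same-numbered libraries correlated at -0.178, 0.0216 and -0.232 for DM with GS and at -0.0462, 0.0503 and -0.106 for NO with GS. Quantile normalisation moved the median log2 fold change of all genes in NO against GS to -0.115, and called members kept their direction relative to it. *Slc7a10* and *Slc7a8* rest on few reads, and NO on libraries of which 1 stood apart.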
